A study of Mus musculus with 21 samples.

Results

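Gene expression in the dentate gyrus was compared between mice whose NgR transgene had been on for life and mice that could not switch it on. The comparison used 6 of the 21 arrays of the series, taken by their labels as experiment 2. The 3 bitransgenic samples, numbered 7, 4 and 5, came from mice with the NgR transgene and the transactivator tTA that were given water and had never been exposed to doxycycline, the drug that holds tTA off. The 3 monotransgenic samples, numbered 1, 2 and 8, also came from mice given water, and the labels of another set say that monotransgenic mice lack tTA. Values are given in that order of sample numbers throughout. The groups differed in tTA as well as in NgR expression, so effects of tTA and of NgR cannot be told apart. The labels give no age, no sex, no promoter for tTA, no species of origin for the transgene, and no word on whether a sample was 1 animal or a pool. The p-values therefore measure the spread between samples, which may be technical. That spread is of these 6 samples or, where called shared, of all 21 arrays. Groups of 3 limit the precision of every value.

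NgR, the product of *Rtn4r*, is a receptor tethered to the outer neuronal membrane by a GPI lipid anchor. It binds the myelin proteins Nogo, MAG and OMgp and, through co-receptors such as Lingo1, p75 and Troy, signals to the GTPase RhoA, which restrains axon growth. In the forebrain it is also known as a brake on synaptic plasticity, and its transcript in the dentate gyrus is known to fall after neuronal activity.

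The labelled tissue was checked against marker genes. *Prox1*, the transcription factor that defines dentate granule cells, had intensities of 513, 318 and 635 in the monotransgenic samples and 477, 818 and 345 in the bitransgenic samples. *Calb1*, the calcium buffer calbindin of mature granule cells, ran from 5395 to 7492. Of the 18 granule cell markers measured, 7 were higher and 11 lower in bitransgenic samples, with a median log2 difference of −0.14. Over all 12499 genes the median was 0.02 and 52.1% were higher, a share that was 41% on the deposited scale and 57.8% with each array centred on its 75th percentile, so counts of higher and lower members depend on the scaling. Values are differences of normalized log2(intensity + 16), bitransgenic minus monotransgenic, unless called intensities, a fold on that scale understates the change of dim genes, and overlap between groups is judged on the normalized values. In bulk tissue, fewer cells of a type and less RNA per cell cannot be told apart.

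RNA quality was uneven in these samples. The beta-actin control has a probe set near each end of the transcript, and a high 3' to 5' ratio means that the 5' end was poorly represented. Its log2 ratio was 5.97, 4.90 and 4.84 in monotransgenic samples 1, 2 and 8, and 5.10, 6.45 and 5.41 in bitransgenic samples 7, 4 and 5. Monotransgenic sample 1 and bitransgenic sample 4 stood highest, and the 15 arrays of the other sets ran from 4.17 to 5.12. The Gapdh ratio did not single out these samples, at 4.49, 4.74 and 4.60 against 4.11, 4.63 and 4.31, within 3.95 to 4.80 in the other sets. Both Gapdh probe sets were nonetheless dimmer there than in any other array. Their 3' and 5' intensities were 2840 and 126 in monotransgenic sample 1, and 2914 and 118 in bitransgenic sample 4. The transferrin receptor ratio ran from −0.75 to 2.98 in the 6 samples and from −1.33 to 2.99 in the other sets. Both its probe sets were dim in every array, at 26.3 or less, so this ratio says little about RNA quality. Pyruvate carboxylase ran from 1.43 to 3.50 against 1.58 to 3.96, with a 5' probe set that was also dim, at 26.9 or less. Bitransgenic sample 4 held 29.3% of the residual variance of the 6 arrays and the others from 10.5% to 19.5%. Gene by gene, the SD had a median of 0.28 among monotransgenic and 0.30 among bitransgenic samples, and of 0.14 to 0.16 in each group elsewhere in the series.

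**Figure D1:**
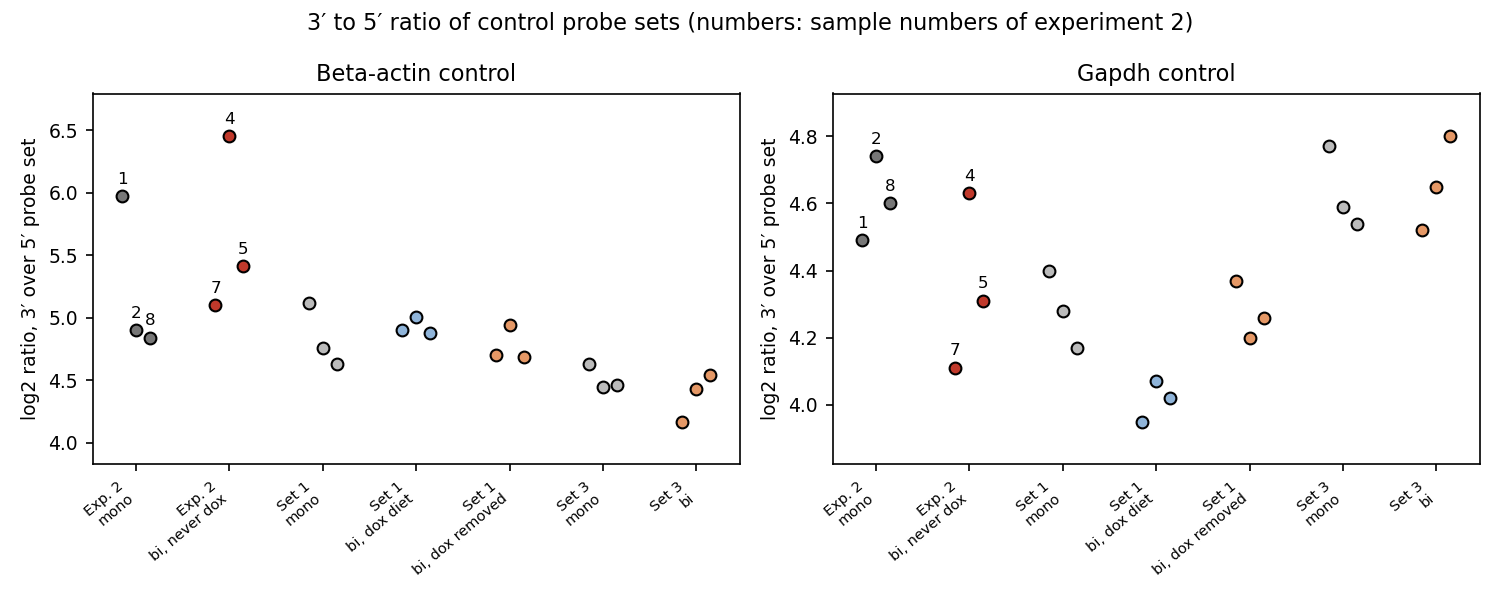
The log2 ratio of the 3' to the 5' control probe set (vertical axis) is plotted for each of the 21 arrays by group, for beta-actin and for Gapdh, with the sample numbers of experiment 2. For beta-actin, monotransgenic sample 1 (5.97) and bitransgenic sample 4 (6.45) lie above all others, while for Gapdh the 6 samples lie within the range of the other sets.

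Because of that spread, differences were tested in limma both with the spread of the 6 samples themselves and with 1 spread per gene shared over all 7 groups of the series. With their own spread, 0 of 12499 genes (0%) passed an adjusted p of 0.05; the smallest adjusted p was 0.563, and 411 genes had an unadjusted p under 0.05. With the shared spread 12 genes passed (0.096%), 2 up (0.016%) and 10 down (0.08%), and 1806 had an unadjusted p under 0.05. The median standard error was 0.21 with the shared spread and 0.27 with the own spread. The shared spread took in the quieter groups elsewhere in the series. It is therefore likely too small for these 6 samples, and p-values and counts with the shared spread overstate the evidence. When the variance of each set was scaled by a factor of its own, 0 genes passed in limma and 511 had an unadjusted p under 0.05. Where each of the 6 samples was instead weighted by its own scatter, 3 genes passed (0.024%): *Rtn4r* and *Lrrtm1* rose (0.016%) and *Gtpbp6* fell (0.008%). Those weights ran from 0.272 for bitransgenic sample 4 to 4.45 for bitransgenic sample 5, so that fit leaned most on sample 5. The count with the shared spread moved widely: weights on all 21 arrays gave 890 genes (7.12%), 440 up (3.52%) and 450 down (3.6%), and leaving out monotransgenic sample 1 and bitransgenic sample 4 gave 518 (4.14%), 211 up (1.69%) and 307 down (2.46%). With the own spread and without those samples 0 passed in limma, and 1460 genes had an unadjusted p under 0.05. Values of the groups did not overlap for 1086 genes (8.69%), 640 of them higher (5.12%) and 446 lower (3.57%) in bitransgenic samples.

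**Figure D2:**
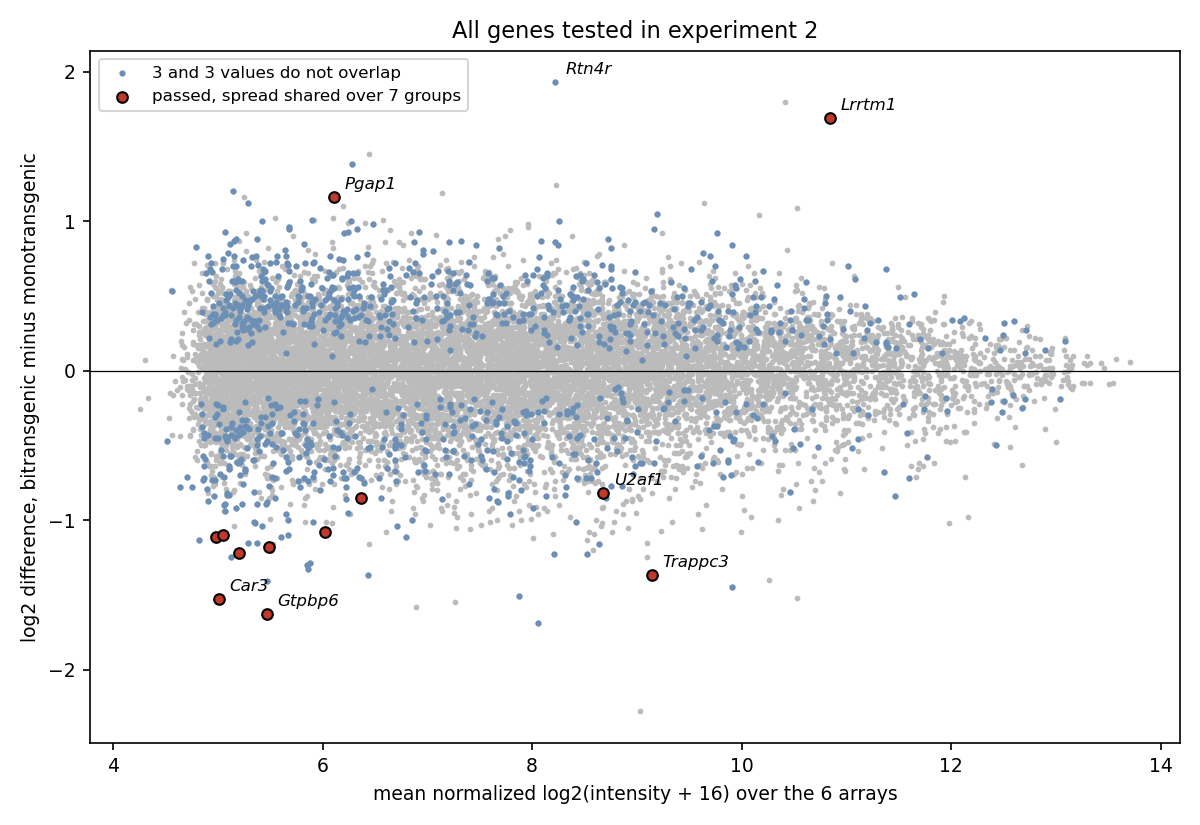
Each point is 1 of the 12499 genes tested, with its mean normalized log2(intensity + 16) over the 6 samples on the horizontal axis and its log2 difference on the vertical axis. Blue points mark genes whose values did not overlap between groups, and red points the 12 that passed with the shared spread; of these, *Lrrtm1* (1.69) stands farthest above 0, and most of the 10 falls lie among dim genes.

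*Rtn4r* itself had the largest positive difference of all genes tested. Its intensities were 113.5, 185 and 123 in the monotransgenic samples and 605, 364.5 and 753 in the bitransgenic samples. The groups did not overlap, and sample 4, the sample of highest actin ratio, was the lowest of its group. The difference was 1.93 ± 0.30 log2 units (standard error, own spread), 3.82-fold. It did not pass over all genes in limma, with an adjusted p of 0.563 with the own spread and 0.062 with the shared spread; weighted by sample it was 2.27 and passed (adjusted p = 0.00272). The two-sided exact permutation p was 0.1, the smallest that 20 labelings of 3 against 3 allow. Without the samples of highest actin ratio the difference was 2.11. One probe set carried the value, and the files do not say whether it reads the transgene or the mouse gene alone.

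Of the 15 measured receptors, co-receptors, ligands and effectors of the pathway, 5 were higher and 10 lower, with a median of −0.10. None passed with the own or the shared spread, and only *Rtn4r* passed with weights on the 6 samples. The NgR relatives *Rtn4rl1* and *Rtn4rl2* differed by −0.11 and 0.16. Among co-receptors, *Tnfrsf19*, which codes for Troy, had intensities of 423, 382 and 342 against 444, 432 and 499, without overlap, a difference of 0.26 ± 0.23 (limma adjusted p = 0.939 with the own spread). *Lingo1* differed by −0.28 with overlap. Among ligands, the Nogo gene *Rtn4* differed by 0.10, *Omg* by −0.22 and *Mag*, a myelin protein gene, by −0.33. *Mag* was at 25.4, 37.5 and 32.7 against 18.7, 3.98 and 34.3, with overlap and sample 4 the lowest, and without that sample its difference was 0.03. *Ptprs*, a phosphatase receptor for chondroitin sulphate proteoglycans that acts beside NgR, was at 536, 1162 and 862 against 668, 416 and 513, a difference of −0.64 ± 0.31. Downstream, *Rhoa* (−0.06), *Rock1* (−0.02) and *Arhgef12* (0.05) were close to 0. Without the samples of highest actin ratio 9 members were higher and 6 lower, with a median of 0.06.

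*Lrrtm1* codes for a leucine-rich repeat protein of the postsynaptic membrane that binds neurexins and organizes excitatory synapses. Its intensities were 762, 813 and 1469.6 in monotransgenic and 4282, 2869 and 3782 in bitransgenic samples. Every bitransgenic sample lay above every monotransgenic one. It rose by 1.69 log2 units, 3.24-fold, with the shared spread (standard error 0.23, limma adjusted p = 0.00639) and by 1.59 with sample weights (adjusted p = 0.028); with the own spread it did not pass (standard error 0.27, adjusted p = 0.563). All 3 of its probe sets were higher without overlap, by 1.39, 2.33 and 1.69. It passed with the shared spread without each of the 6 samples, at 1.51 to 1.99.

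**Figure D3:**
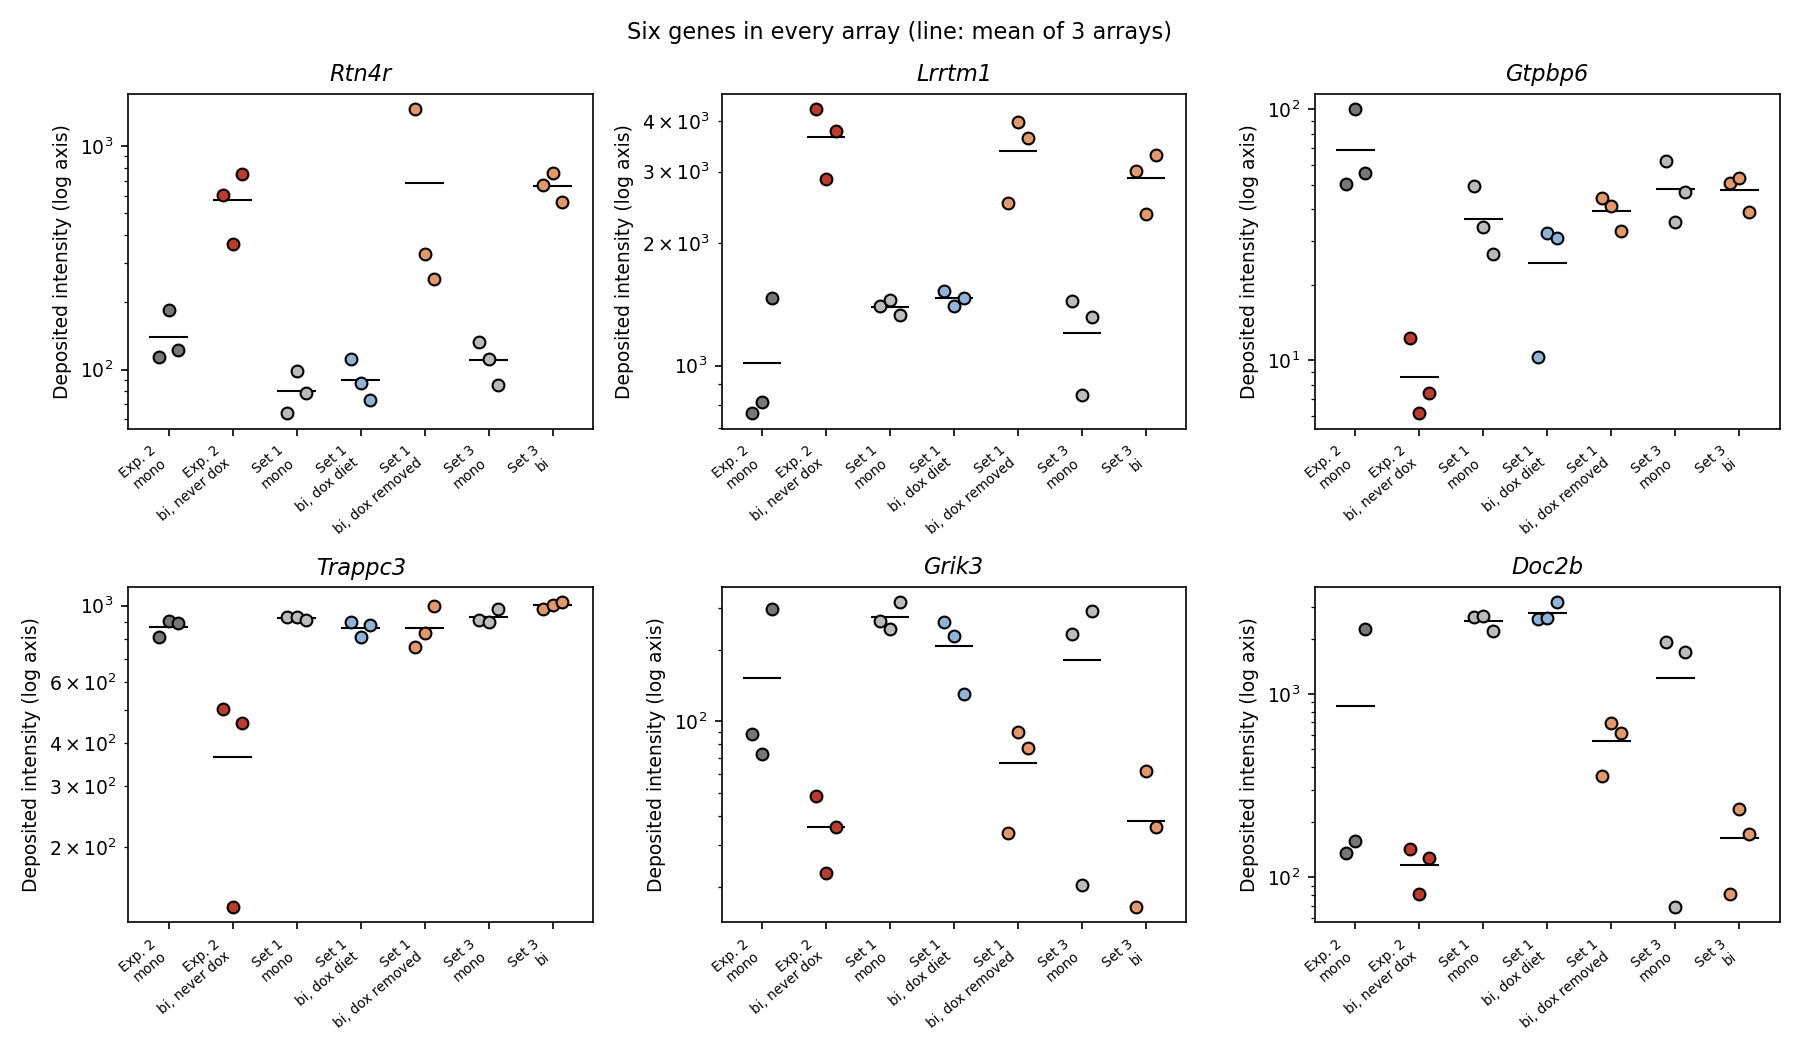
Deposited intensity on a log axis is shown for each of the 21 arrays by group, with a line at the mean of 3 arrays, for *Rtn4r*, *Lrrtm1*, *Gtpbp6*, *Trappc3*, *Grik3* and *Doc2b*. *Rtn4r* and *Lrrtm1* are high in the 3 bitransgenic groups with the transgene on, *Gtpbp6* and *Trappc3* are low in the bitransgenic samples of experiment 2, and in *Doc2b* monotransgenic samples 1 and 2 lie with the bitransgenic samples and sample 8 at 2273.

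Of 31 synapse-organizing genes measured, 13 were higher and 18 lower, with a median of −0.09, and 1 of them, *Lrrtm1*, passed with the shared spread. *Flrt1*, another leucine-rich adhesion gene, was at 71.3, 67.2 and 59.7 against 42.6, 32.1 and 38.2, lower without overlap by 0.44 ± 0.23. *Slitrk5* stood 1 log2 unit lower (standard error 0.56) and *Lrrc4c* at −0.74 ± 0.39, both with overlap and both lowest in bitransgenic sample 4, at 35.8 and 97.5. *Flrt1*, *Slitrk5* and *Lrrc4c* stood at −0.28, −0.76 and −0.25 without the samples of highest actin ratio.

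*Pgap1* removes an acyl chain from the inositol of GPI anchors as anchored proteins leave the endoplasmic reticulum. Its intensities were 37.4, 25.5 and 42.3 against 54.3, 115.5 and 77.9, with no overlap and the highest value in sample 4. It rose by 1.16 log2 units, 2.23-fold, with the shared spread (limma adjusted p = 0.0499) and did not pass with the own spread (standard error 0.32, adjusted p = 0.939). Without sample 4 the difference was 0.87, and it passed with the shared spread in 2 of 6 fits that left out a sample. The 24 genes of GPI anchor synthesis and remodelling had 15 higher and 9 lower, a median of 0.09 and *Pgap1* as the 1 that passed. *Pigv*, a mannosyltransferase of the pathway, was at 20, 19.9 and 12.2 against 30.0, 31.7 and 22.0, higher without overlap by 0.60 ± 0.24. *Pigt*, a subunit of the transamidase that attaches the anchor, stood at −0.53 with overlap.

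Of the 10 genes that fell with the shared spread, *Gtpbp6*, which codes for a GTP-binding protein, had the lowest p. Its intensities were 50.3, 100.6 and 55.6 in monotransgenic samples and 12.3, 6.15 and 7.42 in bitransgenic samples. The groups were far apart, but the bitransgenic mean lay under the mean log2 of 4.90 that a probe set had to reach over the 21 arrays, so the size of the fall is uncertain. It fell by 1.63 log2 units (limma adjusted p = 0.0122) and again with sample weights (adjusted p = 0.0372), but not with the own spread (adjusted p = 0.563). It ran from −2.65 with a pseudocount of 1 to −0.79 with one of 64.

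*Trappc3* codes for a core subunit of TRAPP, the complex that tethers vesicles on their way to the Golgi. It was at 811, 902 and 890 against 503, 134.0 and 456.5, with no overlap and sample 4 far below the rest. It fell by 1.37 log2 units with the shared spread (limma adjusted p = 0.0418), by 0.86 without sample 4, and did not pass with the own spread (adjusted p = 0.939). Over 30 genes of TRAPP and other tethering complexes 18 were higher and 12 lower, with a median of 0.03. *Trappc2* was higher without overlap by 0.49 ± 0.22, at 1033, 833 and 820.3 against 1106, 1748 and 1286, and *Trappc5* by 0.40 ± 0.24.

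*U2af1*, the splicing factor that recognises the end of introns, was at 570.1, 523 and 456.5 against 333, 189.9 and 331. It fell by 0.82 log2 units with the shared spread (limma adjusted p = 0.0418), with all 3 bitransgenic samples below the lowest monotransgenic one and sample 4 again the lowest. Among 27 core splicing factors 8 were higher and 19 lower, with a median of −0.06, and *U2af1* was the 1 that passed. *Snrnp70*, of the U1 particle, stood at −1.06 ± 0.40 with overlap, at 112, 269.9 and 372 against 152.5, 64.9 and 79.1. *Srsf2* and *Srsf3*, which code for serine- and arginine-rich splicing regulators, stood 0.43 and 0.36 higher, with overlap.

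Most of the other 7 genes that fell with the shared spread were dim in bitransgenic samples. *Car3*, a carbonic anhydrase gene, was at 70.3, 49.3 and 18.1 against 0.407, 1.39 and 6.94, and fell by 1.53. *Ubash3a*, a lymphocyte signalling gene, was at 48.7, 37.4 and 48.9 against 1.47, 12.6 and 10.2, and fell by 1.22. *Habp2*, a gene of an extracellular protease, was at 40.3, 41.2 and 28.8 against 5.85, 6.67 and 5.11, and fell by 1.10. The bitransgenic samples stayed below the monotransgenic samples in all 3 genes, and their means lay under the same limit of 4.90. The same was true of *Fbxl15*, a ubiquitin ligase subunit gene, which fell by 1.11. *4930432L08Rik* fell by 1.18, the adhesion gene *Ceacam1* by 1.08 and *Zc3h18*, which links RNA processing to decay, by 0.85. The bitransgenic means of *Ceacam1* and *Zc3h18* were 5.48 and 5.94, above that limit. Adjusted p of these 7 in limma with the shared spread ran from 0.0342 to 0.0499, and none passed with the own spread (adjusted p = 0.939) or with sample weights. *Ceacam1* had 3 probe sets above the filter, of which 1 went the other way (0.55, with overlap).

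Beyond the 12, the largest differences without overlap were taken as a description. Higher in bitransgenic samples were *Ccdc80*, a secreted matrix protein gene, at 57.7, 57.4 and 7.66 against 92.5, 98.8 and 109.7 (1.38 ± 0.40), and *Nqo2*, a quinone reductase gene, at 15.9, 6.75 and 4.46 against 18.7, 48.3 and 39.5 (1.20 ± 0.31). *Rnf180*, a ubiquitin ligase gene, was at 255, 125.6 and 250.6 against 442, 309.5 and 471 (1.00 ± 0.33). In all 3 genes the lowest bitransgenic sample lay above the highest monotransgenic one. *Fosb*, *D430019H16Rik*, *Zbtb26*, *Rad51c*, *Uba6* and *Slc10a7* stood 0.98 to 1.12 higher. *Fosb*, an immediate early gene, reached 86.6 in bitransgenic sample 4 and 22.1 and 22.9 in samples 7 and 5, against 6.21, 11.8 and 20.3. Without sample 4 its difference was 0.59. *Zbtb26*, *Rad51c*, *Uba6* and *Slc10a7* were also highest in sample 4. None of these 9 passed, with limma adjusted p from 0.0948 to 0.245 with the shared spread.

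Lower without overlap stood *Ighm*, the immunoglobulin heavy chain gene, at 247, 712.5 and 488 against 184, 72.4 and 135.5 (−1.69 ± 0.39). Of its 4 probe sets that passed the intensity filter, 2 were lower without overlap and the others overlapped. *Tmsb10*, which codes for the actin-sequestering thymosin beta 10, was at 1693.5, 1235 and 1795 against 849, 229.6 and 820.4 (−1.45 ± 0.40), and without sample 4 it stood at −0.90. *Chd7*, a chromatin remodeller gene, was at 54.9, 75.4 and 120.5 against 22.1, 14.8 and 21.8 (−1.30 ± 0.29). *Grik3*, a kainate receptor subunit gene, was at 88.1, 72.8 and 298 against 48.6, 22.9 and 35.8 (−1.37 ± 0.45). *Doc2b*, a calcium sensor gene of vesicle release, was at 135.5, 158 and 2273 against 142, 81.1 and 127 (−1.51 ± 0.84). Its groups did not overlap once normalized, though the intensities crossed. Monotransgenic sample 8 made the *Doc2b* difference, which was −0.23 without it, and that of *Grik3* was −0.79 without it. *Stk17b*, *Dtl*, *Vmn1r58* and *4930578M01Rik* stood 1.25 to 1.41 lower and were dim in bitransgenic samples. Of the 31 genes made up of *Rtn4r*, the 12 and those named here for size, 11 had more than 1 probe set above the filter, and in 6 of these some probe set had the opposite sign, among them *Nqo2* (−0.28), *Tmsb10* (0.34) and *Stk17b* (0.14).

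**Figure D4:**
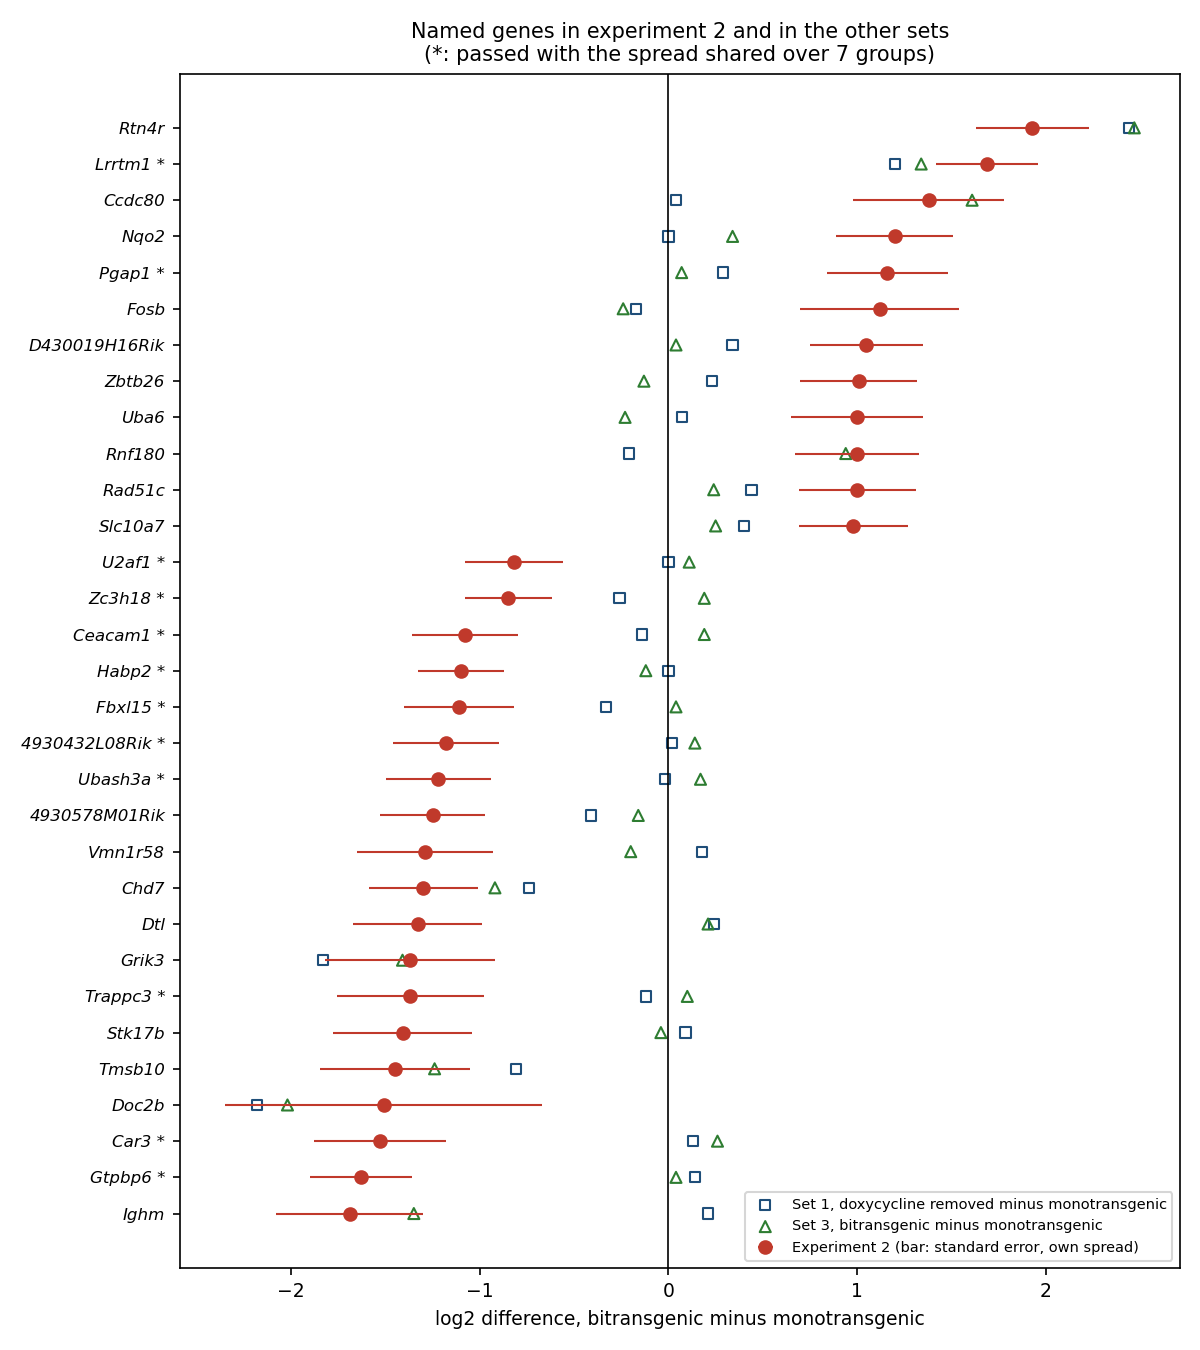
Log2 differences (horizontal axis) are shown for the 31 genes named so far by rule, as red points with standard errors from the own spread for experiment 2, blue squares for set 1 and green triangles for set 3. *Rtn4r* and *Lrrtm1* lie far to the right in all 3 sets, whereas the squares and triangles of *Gtpbp6*, *Car3* and *Trappc3* lie near 0.

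Sets 1 and 3 share no array with experiment 2 and also compare bitransgenic with monotransgenic mice, but not under the same conditions. Sex-linked transcripts, given below, differed between experiment 2 and these sets as well. In set 1 doxycycline had been removed to switch the transgene on, and in set 3 the labels give no treatment. *Rtn4r* differed by 2.44 in set 1 and 2.47 in set 3, and *Lrrtm1* by 1.20 and 1.34, in the direction of experiment 2. *Pgap1* differed by 0.29 and 0.07. Of the 10 genes that fell, 6 were lower in set 1 and 1 in set 3, and their median difference there was −0.01 and 0.12. *Gtpbp6*, for example, was at 0.14 and 0.04, with intensities from 26.5 to 62.0 in the monotransgenic and 32.8 to 53.5 in the bitransgenic arrays of those sets with the transgene on. *Trappc3* was at −0.12 and 0.10. Among genes without overlap that did not pass, *Chd7* (−0.74 and −0.92), *Tmsb10* (−0.81 and −1.24), *Grik3* (−1.83 and −1.41) and *Doc2b* (−2.18 and −2.02) were lower in both sets. In set 3 the intensities of *Tmsb10*, *Grik3* and *Doc2b* overlapped between groups. *Ighm* (0.21 and −1.35), *Ccdc80* (0.04 and 1.61) and *Rnf180* (−0.21 and 0.94) kept their sign in set 3 and not, or barely, in set 1. The 12 largest falls without overlap, passed or not, were lower in set 1 for 6 (50%) and in set 3 for 8 (66.7%). In both sets 5 were lower (41.7%). Of the 12 largest rises without overlap, 10 (83.3%), 9 (75%) and 8 (66.7%) were higher in set 1, set 3 and both. These rises include *Rtn4r* and *Lrrtm1*. Of all 640 genes higher without overlap, the shares were 57.5%, 55.9% and 32.3%. Of all 446 lower without overlap, 59%, 48% and 28.7% were lower in set 1, set 3 and both. Over all genes, 57.9% had the same sign as experiment 2 in set 1, 49.5% in set 3 and 29.7% in both, so the full classes lay near that background.

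The difference between sets was itself tested in limma with the shared spread. Between experiment 2 and set 3 it passed for 0 genes, with a smallest adjusted p of 0.476 and 1011 genes at an unadjusted p under 0.05. Between experiment 2 and set 1 it passed for 0 genes, with a smallest adjusted p of 0.338 and 989 genes at an unadjusted p under 0.05. No gene was therefore shown to respond in experiment 2 alone. *Xist*, the RNA that silences an X chromosome in female cells, was at 2361 to 4749.6 in the 6 samples of experiment 2 and 9.59 to 33.7 in the 15 other arrays. *Eif2s3y*, on the Y chromosome, was at 0.316 to 9.84 against 395 to 680.3. These are female levels in all 6 samples and male levels in the other sets; their part in differences between the sets was not tested.

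Genes were also described in 31 lists, of which 515 of 645 genes were measured. None of the lists named from here on held a gene that passed with the own or the shared spread, other than those named. Differences of dim members, among them *Grm8*, *Gap43*, *Pdgfra* and *Aif1*, are uncertain in size. Among 24 glutamate receptor genes 11 were higher and 13 lower, with a median of −0.11. *Grm8*, a presynaptic glutamate receptor, was at 16.5, 17.4 and 5.74 against 25.0, 41.5 and 25.0, higher without overlap by 0.88 ± 0.27. *Grin3a*, an NMDA receptor subunit gene, was at 230, 317 and 120.2 against 339.5, 320.3 and 313, a difference of 0.65 ± 0.34 with no overlap once normalized, though the intensities crossed. The AMPA receptor gene *Gria4* stood at −0.58 with overlap. Leaving out the samples of highest actin ratio made 7 higher and 17 lower, with a median of −0.21.

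Of 18 postsynaptic scaffold and plasticity kinase genes 8 were higher and 10 lower (median −0.13). *Camk2b*, a subunit of the calcium-dependent kinase of synaptic plasticity, was at 991, 2426 and 2415 against 1436, 431 and 1160, with overlap, 1 log2 unit lower (standard error 0.45). *Homer2*, a scaffold gene, stood 0.57 higher with overlap. Immediate early genes are induced within minutes of neuronal firing, and of 24 measured 10 were higher and 14 lower (median −0.06). *Npas4* was at 37.5, 59.0 and 54.2 against 97.2, 67.0 and 54.7, a difference of 0.65 ± 0.26 without overlap once normalized, and *Fos* was at 679, 647 and 1147 against 1157.5, 1241 and 1136, with overlap at 0.45. *Dusp6*, a phosphatase gene induced by the ERK pathway, stood at −0.58.

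Axon growth and regeneration genes, of the process that NgR is known to restrain, had 6 higher and 16 lower of 22. Over all genes 52.1% were higher. The list median was −0.09, and −0.17 without the samples of highest actin ratio. In sets 1 and 3 it was 0.04 and −0.01, so the tilt was not seen there. *Gap43*, a growth cone protein gene, was at 32, 53.5 and 27.0 against 12.9, 10.4 and 17.1, lower without overlap by 0.66 ± 0.26. It was dim in bitransgenic samples, so the size of the fall is uncertain. *Marcksl1*, an actin-regulating relative of Marcks, was at 949.5, 1179 and 2238.5 against 876, 970.1 and 919, a difference of −0.61 ± 0.30. It had no overlap once normalized, though the intensities crossed. *Sox11*, a transcription factor of growing neurons, and *Cap1*, an actin regulator, stood at −0.58 and −0.50, with overlap.

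Markers of inhibitory neurons and GABA receptor genes had 6 higher and 13 lower of 19 (median −0.05). *Slc32a1*, the vesicular GABA transporter, was at 197, 248 and 257 against 181, 89.7 and 133, lower without overlap by 0.68 ± 0.26. *Sst* (−0.83) and *Npy* (−0.53), neuropeptides of inhibitory neurons, and *Gabrd* (−0.68), a GABA receptor subunit of granule cells, were lower with overlap and lowest in sample 4. Among the 4 samples of lower actin ratio 10 were higher and 9 lower.

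Among dentate granule cell markers, *C1ql2*, a secreted synaptic organizer of mossy fibres, was at 136, 442 and 1234 against 256.5, 156 and 210.4 (−0.98 ± 0.59). The peptide genes *Penk* and *Pdyn* stood at −0.92 and −0.74 and *Stxbp6* at −0.41. All of them overlapped between groups and were highest in monotransgenic sample 8, whose mean over the 18 markers was 0.47 above the 6-sample mean against −0.29 to 0.02 in the others. The median difference of the 18 markers was −0.14 here, −0.43 in set 1 and −0.42 in set 3. Markers of CA1 pyramidal cells differed by a median of −0.23 over 7, with *Wfs1* 0.52 higher and *Pou3f1* 0.87 lower, both without overlap. Those of CA3, CA2 and hilar mossy cells differed by −0.05 over 11, those of neurogenesis and proliferation by −0.07 over 13, and those of thalamus, neocortex and striatum by 0.01 over 12. The choroid plexus markers differed by 0.13 over 6, and *Ttr*, their defining transcript, was at 1.29 to 42.7 in the 6 samples.

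Of 9 oligodendrocyte precursor markers 0 were higher and 9 lower, with a median of −0.31. *Pdgfra*, the growth factor receptor that defines these cells, was at 41.4, 52.3 and 53.2 against 4.42, 26 and 17.6, lower without overlap by 0.89 ± 0.30. *Olig1*, a transcription factor of the whole lineage, was at 420, 493 and 270.3 against 241, 179.5 and 246, lower without overlap by 0.70 ± 0.29, and *Cspg4* by 0.37. None passed, with adjusted p from 0.136 to 0.939 in limma over both fits. Of 15 oligodendrocyte and myelin markers, which share *Olig1*, *Olig2* and *Sox10* with the precursor list, 4 were higher and 11 lower, with a median of −0.33. *Mbp*, the myelin basic protein gene, was at 3850, 3291 and 2535 against 2740.5, 2108 and 2980, with overlap at −0.33, and *Mobp* stood at −0.53 and *Mal*, without overlap, at −0.35. The summed intensity of the precursor markers was 531 to 871 in monotransgenic and 363 to 453 in bitransgenic samples, without overlap, and that of the myelin markers was 4353 to 5642 and 3105 to 4525, with overlap. The mean centred log2 level of the myelin markers was 0.15 in bitransgenic sample 5, above 0.04 and 0.03 in monotransgenic samples 1 and 8. Without the samples of highest actin ratio the medians were −0.21 and −0.18, with 6 of 9 and 10 of 15 lower. The median of the precursor markers was 0.02 in set 1 and 0.04 in set 3, and that of the myelin markers −0.27 and 0.01.

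Astrocyte markers had 5 higher and 13 lower of 18 (median −0.15, and 0.05 without the samples of highest actin ratio). *Fgfr3*, a growth factor receptor gene of astrocytes, was higher without overlap by 0.60 ± 0.26 at 121, 113.5 and 88.7 against 177, 164 and 127, and *Aldh1l1*, a folate enzyme gene, was lower without overlap by 0.39 ± 0.24. Microglia markers had 7 higher and 8 lower of 15 (median −0.06, and 0.10 without the samples of highest actin ratio). *Tmem119*, one of those higher, stood at 0.37 with overlap. The complement gene *C1qb* was at 304, 315 and 246.5 against 238, 50.7 and 180.6 (−0.96 ± 0.42). *Aif1* was at 28.3, 16.7 and 22.9 against 8.41, 4.29 and 8.97 (−0.57 ± 0.24). Both were lower without overlap, and *Aif1* was dim, so the size of its fall is uncertain. Endothelial and pericyte markers had 4 higher and 10 lower of 14 (median −0.14), with the pericyte gene *Vtn* lower by 0.50 without overlap. Of 7 meningeal markers 2 were higher and 5 lower, and *Ogn*, a matrix proteoglycan gene, was at 153, 79.6 and 525.5 against 54.5, 27.9 and 71.9 (−1.58 ± 0.57), with overlap once normalized. Of the 2 blood cell markers measured, *Ubash3a* fell as given above and the globin gene *Hba-a2* stood 0.37 higher.

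**Figure D5:**
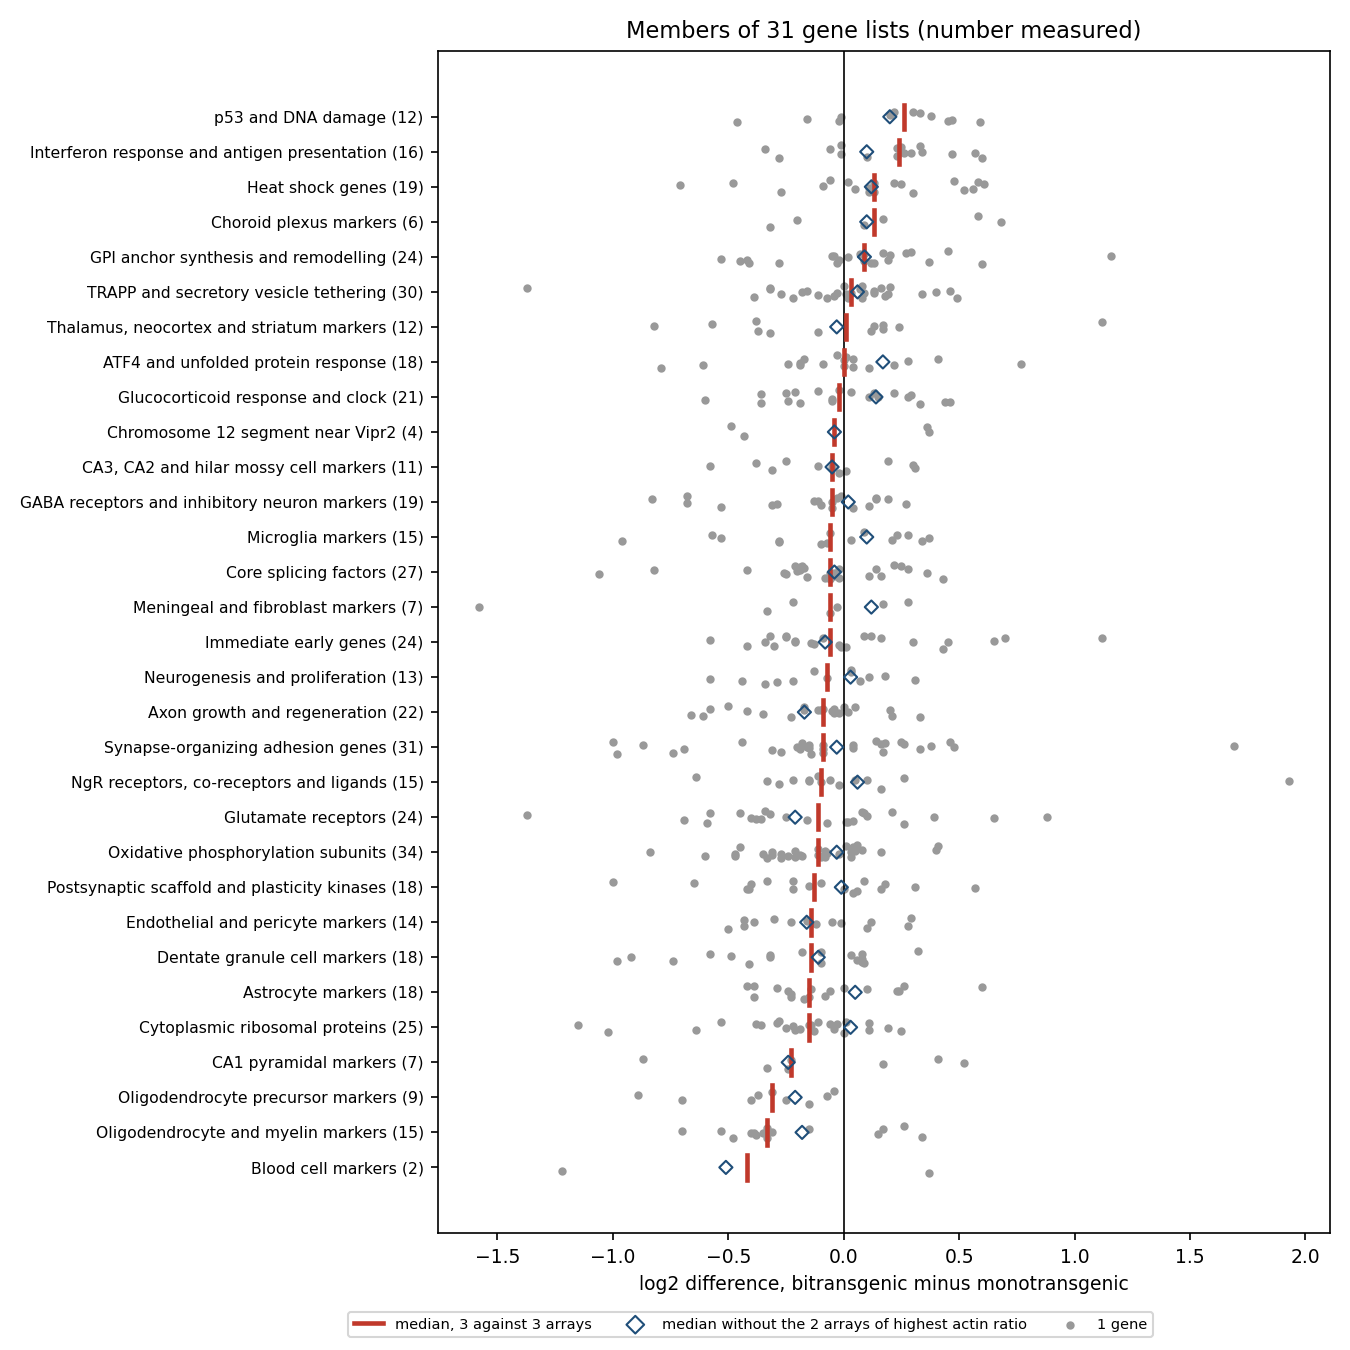
Log2 differences of the measured members of 31 gene lists (grey points; number measured in brackets) are ordered by their median (red bar), with the median without the 2 samples of highest actin ratio as a blue diamond. Medians run from −0.42 for the 2 blood cell markers to 0.26 for p53 and DNA damage genes. The diamonds of several lists lie on the other side of 0 from their bars. Among them are the NgR pathway, astrocyte, microglia, meningeal, inhibitory neuron, glucocorticoid and clock, and ribosomal protein lists.

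Genes of the ribosome and the respiratory chain were lowest in bitransgenic sample 4. Of 25 cytoplasmic ribosomal protein genes 5 were higher and 20 lower (median −0.15), and their mean was −0.58 in sample 4 against 0.04 to 0.20 in the other 5 samples. *Rps15* was at 521, 1075 and 811 against 656, 114 and 462.5, and *Rpl8* at 4264, 4310.5 and 3984 against 4186, 1145 and 4043. Among the 4 samples of lower actin ratio 13 were higher and 12 lower. Of 34 oxidative phosphorylation subunit genes 10 were higher and 24 lower (median −0.11), with a mean of −0.43 in sample 4 against 0.00 to 0.20 in the others. *Ndufv1*, a complex I subunit gene, was at 3699, 4633 and 3746 against 3112, 1105 and 3135, lower without overlap by 0.84 ± 0.35 and by 0.45 without the samples of highest actin ratio.

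Heat shock genes, which code for chaperones, went the other way, with 14 higher and 5 lower of 19 (median 0.13). Their mean was 0.08, −0.04 and −0.23 in the monotransgenic and 0.01, 0.30 and −0.12 in the bitransgenic samples, with overlap and sample 4 the highest. *Dnajb1* was at 2039, 1662 and 1552 against 2313, 4570.5 and 2149.6, higher without overlap by 0.61 ± 0.25, and *Chordc1* by 0.48 ± 0.24. Both were highest in sample 4. In the unfolded protein response 9 were higher and 9 lower of 18 (median 0.00): *Hsp90b1*, a chaperone gene of the endoplasmic reticulum, was at 998, 457 and 1026 against 1407, 1447 and 1421, higher without overlap by 0.77 ± 0.30. *Ddit3*, the stress transcription factor CHOP, was at 227, 235 and 266 against 172, 69.3 and 161, lower without overlap by 0.79 ± 0.30. Leaving out the samples of highest actin ratio put *Hsp90b1* at 0.95 and *Ddit3* at −0.48.

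Interferon response and antigen presentation genes had 11 higher and 5 lower of 16 (median 0.24), and p53 and DNA damage genes 8 higher and 4 lower of 12 (median 0.26). Their medians were 0.10 and 0.20 without the samples of highest actin ratio. *Irf1*, a transcription factor induced by interferon, was at 59.1, 84.0 and 81.6 against 165, 90.8 and 66.4, with overlap. *Trp53inp1*, a target of p53, was at 411, 297 and 267 against 365, 702 and 474, and *Sesn1*, another, stood 0.38 higher, both with overlap. Glucocorticoid response and clock genes had 10 higher and 11 lower of 21 (median −0.02), with *Sgk1* at 0.46 and *Per2* at −0.60. The 4 measured genes of a chromosome 12 segment near *Vipr2* were 2 higher and 2 lower (median −0.04). Their medians in sets 1 and 3 were −0.45 and −0.34, with *Wdr60* at −0.49 here and *Esyt2* and *Ncapg2* at 0.37 and 0.36.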

How the data were processed

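Total RNA of mouse dentate gyrus was measured on Affymetrix arrays. The authors deposited 1 linear intensity per probe set and array, on a scale where the mean of every array, trimmed by 2% at each end, is 150; the processing tool was not given in the sources used here. The 45101 probe sets comprised 34945 with 1 gene symbol, which were used, and 932 with several, 9160 unnamed and 64 control probe sets, which were not. Intensities were transformed as log2(value + 16) and quantile normalized over 21 arrays, the upper 60% of probe sets by mean (27022, limit 4.90) were kept, and the brightest probe set stood for each of 12499 genes. Differences were tested with limma 3.58.1 in R 4.3.3 (eBayes with trend, two-sided, Benjamini-Hochberg, adjusted p under 0.05), on the 6 arrays alone (4 residual degrees of freedom) and on all 21 in 7 groups (14). The scripts were tested on simulated data. No 2 arrays were identical.

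The comparison, gene lists and tests were chosen with earlier results of these data known. Named were *Rtn4r*, genes past the threshold, the 12 largest rises and falls without overlap, and up to 4 members of lowest p per list. *Calb1*, *Prox1* and further genes of the NgR pathway were named for their roles with values known. Alternatives were other pseudocounts, filters, scalings, probe set choices, weights, an actin ratio covariate, and leaving out arrays.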

Additional observations from a re-analysis of the deposited data

How the results depend on the processing

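With the own spread the count of genes passing stayed at 0 in 13 of 14 alternatives and in all 6 fits without 1 sample, and was 3 with array weights. With the shared spread the count of 12 (2 up, 10 down) was 5 with a pseudocount of 64, 2 without a filter on low values, 1 on the upper 40% of probe sets, 40 on the deposited scale (5 up, 35 down), 19 with probe sets averaged per gene (3 up, 16 down), 84 over every kept probe set (17 up, 67 down), 890 with array weights (440 up, 450 down), 0 with 1 variance factor per set, 41 with the actin ratio as a covariate, 41 at a threshold of 0.1 (16 up, 25 down) and 518 without the 2 arrays of highest actin ratio (211 up, 307 down). Centring on the 75th percentile gave 18 (6 up, 12 down). Without 1 sample it ran from 5 to 646: 646 without monotransgenic sample 1, 7 without sample 8, 357, 46 and 5 without bitransgenic samples 7, 4 and 5. Of the 12 genes, 12 were kept without the 2 arrays of highest actin ratio, 5 with a pseudocount of 64 and 2 without a filter.

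*Rtn4r*, at 1.93 in limma, passed with the own spread at 2.27 with array weights. With the shared spread it passed at 2.02 with 75th percentile centring, 1.93 over every kept probe set, 2.32 with array weights, 2.12 with the covariate, 1.93 at a threshold of 0.1 and 2.11 without the 2 arrays, but not with 1 variance factor per set (adjusted p = 0.991). Without 1 sample it ran from 1.73 to 2.19 under either spread, and with the shared spread it passed in 3 of 6 such fits, those without monotransgenic sample 1 (adjusted p = 0.0286) or bitransgenic sample 7 (0.0405) or 4 (0.0332). *Mag* turned to 0.16 with array weights, and ran from −0.67 to 0.03 without 1 sample, the latter without bitransgenic sample 4; *Gria4* turned to 0.04 with its probe sets averaged; the cause was not tested. Over all alternatives for single named genes, 2104 values kept their direction and side of the threshold, 62 no longer passed, 100 newly passed and these 3 changed sign. No paired analysis was possible because the groups share no sample number. Scalings moved the median of all genes between −0.07 and 0.07.

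Limits were the 3 samples per group, the scatter of bitransgenic sample 4 and monotransgenic sample 1, and dim probe sets, whose differences depend on the pseudocount. Arrays give no counts, so no counting interval was available.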

Other observations

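Within the monotransgenic group, sample 8 stood apart from samples 1 and 2 in genes that include granule cell and synaptic genes. These genes were chosen after their values were seen, and the cause was not tested. *Doc2b* was at 135.5, 158 and 2273 in monotransgenic samples 1, 2 and 8 and at 81.1 to 142 in bitransgenic samples. *Penk*, the enkephalin precursor gene, was at 89.6, 108 and 548 against 62.7 to 111. *Tbr1*, a transcription factor of cortical glutamatergic neurons, went the other way, at 1132, 633 and 195 against 933 to 1588.5, and *Blnk*, a B cell adaptor gene, at 1668, 1771 and 120.0 against 1989.6 to 4067. Sample 8 lay outside the bitransgenic range in all 4 genes, while samples 1 and 2 lay in or near it.

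One monotransgenic array of set 3 showed the same split. Its *Doc2b* was at 68.9 and those of the other 2 arrays of its group at 1914 and 1700.1, against 81.5 to 236 in the bitransgenic arrays of that set. Its *Tbr1* was at 1198 beside 184 and 282, its *Blnk* at 3782 beside 217 and 166, its *Grik3* at 20.5 beside 233 and 293, and its *C1ql2* at 135 beside 886 and 1132. In the monotransgenic arrays of set 1, *Doc2b* ran from 2194 to 2650, *Tbr1* from 209.5 to 274 and *Penk* from 459 to 577, all on the side of sample 8. *Rtn4r* and *Lrrtm1* followed the labels in every one of these arrays: *Rtn4r* was at 112 and *Lrrtm1* at 848 in the array of set 3, below the bitransgenic ranges of 562 to 754.5 and 2356 to 3297.

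*Slc5a9*, a sugar transporter gene, had the most negative difference of all genes tested (−2.28), with overlapping values of 204.5, 3238.5 and 1956 against 715, 54.1 and 203. It was chosen after its values were seen, and its span within each group was wider than the difference between them.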
